A study of Mus musculus with 14 samples.

Results

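The 9 genes described here move sterols and phospholipids out of macrophages, carry them on lipoproteins, or set how much cholesterol a cell takes in, stores or remodels. They were taken by symbol from a list of sterol efflux and lipoprotein genes, namely Abca1, Abcg1, Scarb1, Apoe, Apoc2, Pltp, Lpcat3, Soat1 and Mylip, and all 9 were found among the 25239 gene symbols of the deposited table. The rule reads symbols and not levels. In macrophages, excess cholesterol is either esterified for storage in droplets or exported by ATP-binding cassette (ABC) transporters to apolipoproteins and high-density lipoprotein (HDL). Liver X receptors (LXR), nuclear receptors that bind oxysterols, switch on much of the export machinery when sterols are plentiful, while SREBP2 (gene Srebf2) switches on cholesterol synthesis when sterols are scarce. Abca1, Abcg1, Apoe, Apoc2, Mylip, Pltp and Lpcat3 are known LXR target genes.

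RNA was sequenced from mouse bone marrow-derived macrophages, cells grown from marrow with medium of L929 cells as the source of growth factor, with fetal bovine and horse serum in the culture medium. The knockout (KO) cells came from Ezh2fl/fl;LysM-Cre+/- mice, whose floxed Ezh2, the histone H3 lysine methyltransferase of Polycomb complexes, is deleted in myeloid cells by Cre driven from the promoter of lysozyme M. The wild-type (WT) cells came from littermate controls, whose alleles the labels do not list. Each genotype was kept for 24 h in complete DMEM (control) or in medium conditioned by Hepa1-6, a mouse hepatoma cell line (conditioned medium, CM), with 4 WT and 3 KO libraries per medium. No medium conditioned by another cell type served as a control, the ages of the mice are not given, and no label ties a library to its own animal. The p-values therefore cover the spread among these libraries, which may be technical.

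Summed exon counts per library, in units of 1e6, ran from 40.2 to 85.8. WT libraries 3 and 4 of both media stood apart: they were deeper (80.4 to 85.8 against 40.2 to 61.5 in the other 10) and, on the first principal component of exon shares, which held 57.1% of the variance over 109585 exons, lay at 0.405 to 0.437 against -0.206 to -0.141. No label names this difference, so differences between genotypes are also given against WT libraries 1 and 2 alone. The targeted gene differed between the genotypes as labelled: exons of 85 and 81 bases of Ezh2, picked after their values were seen, had 94.0 to 169.5% of the counts per base of its other exons in WT libraries and 2.1 to 31.7% in KO libraries. Lyz2, the lysozyme M gene whose promoter drives Cre, was at 19050 to 24180 CPM (counts per 1e6 counts of the library) in WT and 9313 to 10320 in KO libraries. All 8 macrophage markers were present, and the summed level of the 7 other than Lyz2 was 11320 to 12100 CPM in WT control, 11510 to 11910 in KO control, 11020 to 11640 in WT CM and 10670 to 11280 in KO CM libraries. Lyz2 was the 1 marker of the 8 called between genotypes in each medium (edgeR), with log2 differences of -1.10 ± 0.07 in control medium and -1.11 ± 0.07 in CM. In bulk RNA, fewer cells of a type and less RNA per cell cannot be told apart.

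In WT macrophages most of the export genes were lower, and Apoc2 higher, in CM than in control medium. Mylip, Pltp, Apoe, Abca1 and Abcg1 fell, Apoc2 rose, and Scarb1, Lpcat3 and Soat1 did not pass the test (edgeR's quasi-likelihood test, adjusted p below 0.05 over 13311 genes). That is 1 of 9 members higher and 5 lower, where 19.3% of all genes tested were called higher and 18.0% lower. In KO macrophages the same comparison called 2 higher, Apoc2 and Scarb1, and 5 lower, against 20.0% and 18.2% of all genes. The median log2 change of the 9 members was -0.21 in WT and -0.17 in KO, beside -0.01 for all genes in both genotypes. Where libraries of 2 groups are said below not to overlap, the share of all tested genes without overlap, in either direction, was 33.8% between the media in WT cells and 54.6% in KO cells, and between the genotypes 21.8% in control medium and 20.9% in CM.

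**Figure D1:**
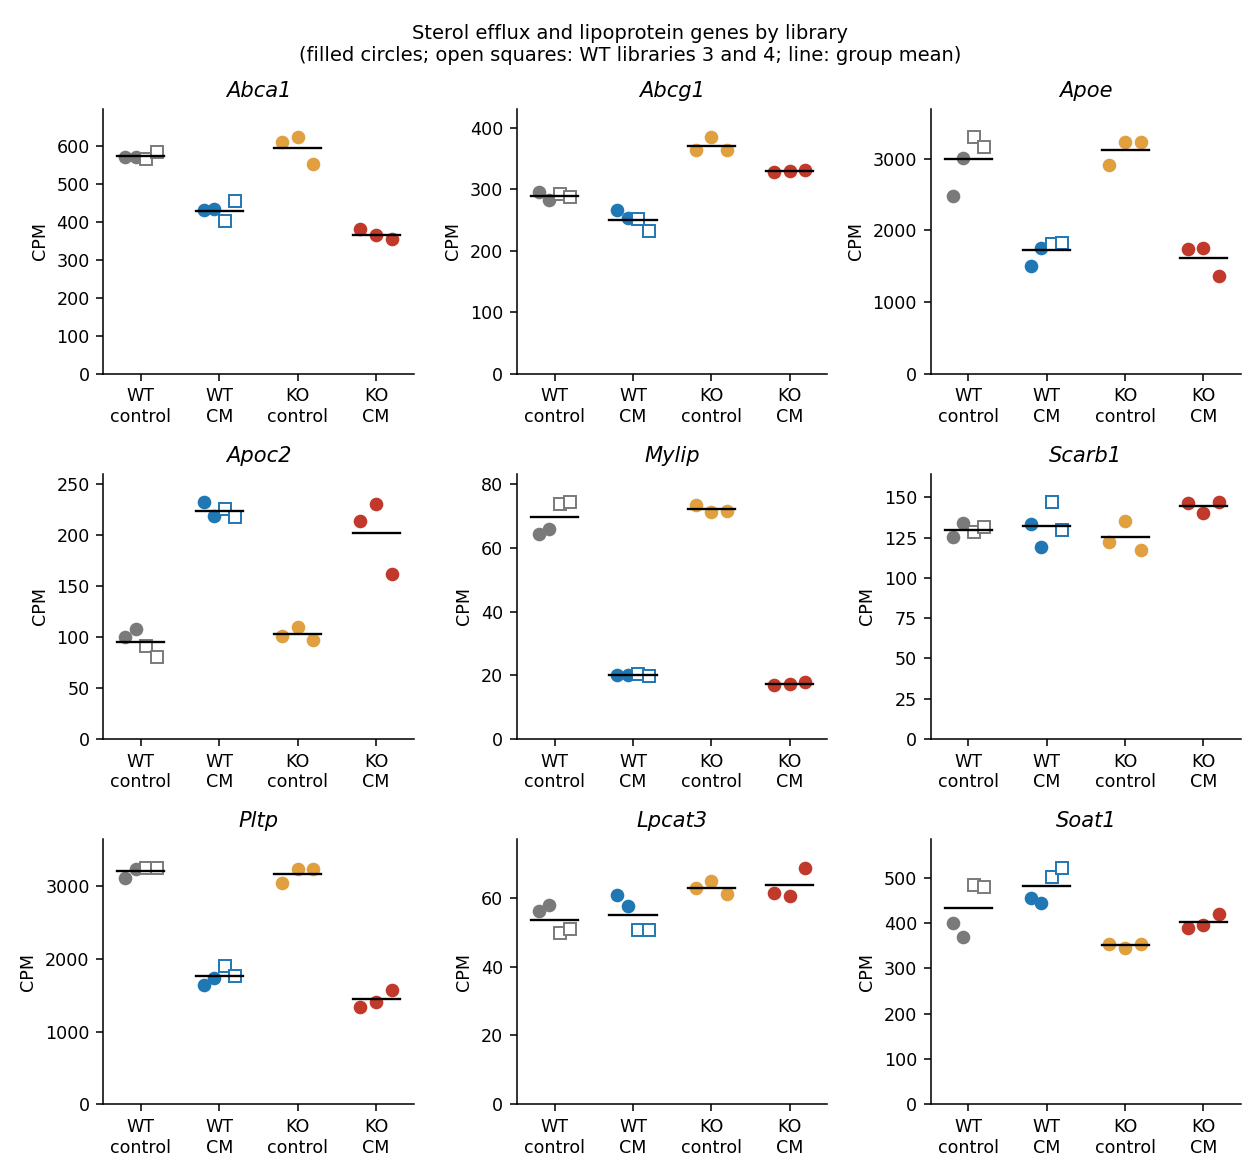
CPM of each gene (vertical axes from 0) in every library, by genotype and medium; circles are libraries, open squares WT libraries 3 and 4, and lines group means. The CM and control libraries of Mylip, Pltp, Apoe, Abca1, Abcg1 and Apoc2 do not overlap within either genotype. The same holds for 33.8% of all genes in WT and 54.6% in KO. Within each medium the KO libraries of Abcg1 lie above the WT libraries. The genotypes do not overlap for 21.8% of all genes in control medium and 20.9% in CM.

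Levels were compared between genes per kilobase of summed exon length, a scale on which a fragment spanning several exons can count in each. In WT control libraries Apoe (1809 ± 218 CPM per kb, SD, n = 4) and Pltp (1778 ± 37.1) were the most abundant members and overlapped each other. Apoc2 (117 ± 14.8) and Soat1 (90.6 ± 12.1) came next, also overlapping, followed without overlap by Abca1 (55.8 ± 0.75), Abcg1 (49.8 ± 0.94) and Scarb1 (39.95 ± 1.16). Mylip (23.3 ± 1.74) and Lpcat3 (21.5 ± 1.62) were lowest and overlapped. In WT libraries in CM, Abca1 (41.9 ± 2.10), Abcg1 (43.1 ± 2.34) and Scarb1 (40.8 ± 3.54) overlapped, and Mylip (6.74 ± 0.10) was the lowest of the 9.

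Abca1 (ENSMUSG00000015243, GRCm38 chr4:53030787-53159895, minus strand) encodes the transporter that loads cholesterol and phospholipid onto lipid-poor apolipoprotein A-I, the first step of HDL formation. In control medium it stood at 571.7, 571.6, 564.5 and 583.1 CPM in the 4 WT libraries and at 610.0, 623.5 and 552.8 in the 3 KO libraries. In CM it stood at 431.5, 432.5, 401.3 and 453.6 CPM in WT and at 380.1, 365.4 and 353.8 in KO. Within each genotype every CM library was thus below every control library, and in CM every KO library was below every WT library. Abca1 fell by 0.41 ± 0.05 (log2 change ± SE; edgeR, adjusted p = 9.70e-06) in WT and by 0.70 ± 0.06 (adjusted p = 1.76e-07) in KO. All 50 of its exons were lower in CM in both genotypes, with exon log2 ratios from -0.59 to -0.19 in WT and from -0.95 to -0.45 in KO.

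The promoter of Abca1 is known to hold an LXR element of the kind called DR4, a direct repeat of the half-site AGGTCA with 4 bases between the copies. RefSeq promoter windows of 300 bases, from 250 before to 50 after the annotated start (GRCm38.p6), were available for 7 members and searched on both strands for this repeat with up to 3 mismatches in its 12 fixed letters, a limit set so that the known Abca1 element is found. Abca1 was the 1 member with a match, and 21.9% of all 32851 windows hold one. The bases before the starts of Abca1, which holds the match, and of Mylip, the member that fell most and has none, are shown, with the half-sites in capitals (TGACCT is AGGTCA read from the other strand).
Abca1, chr4:53159896-53160145, minus strand: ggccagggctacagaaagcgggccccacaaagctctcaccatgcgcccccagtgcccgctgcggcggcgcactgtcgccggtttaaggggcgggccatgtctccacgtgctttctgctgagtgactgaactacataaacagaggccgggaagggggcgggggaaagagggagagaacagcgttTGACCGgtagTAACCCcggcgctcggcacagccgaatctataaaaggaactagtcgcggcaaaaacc
Mylip, chr13:45389492-45389741, plus strand: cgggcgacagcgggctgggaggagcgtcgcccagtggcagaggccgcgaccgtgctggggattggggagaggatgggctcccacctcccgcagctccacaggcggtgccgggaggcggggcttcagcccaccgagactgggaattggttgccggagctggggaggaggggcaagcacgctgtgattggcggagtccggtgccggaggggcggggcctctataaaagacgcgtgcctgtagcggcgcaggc
The Abca1 match begins at position -67 relative to the annotated start and carries 3 mismatches. Nothing follows from the missing match about LXR at the other members, whose elements can lie outside these windows.

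Abcg1 (ENSMUSG00000024030, chr17:31057675-31117988, plus strand) encodes the transporter that passes cholesterol to mature HDL particles. Its WT libraries read 295.3, 283.0, 292.8 and 287.7 CPM in control medium and 265.8, 252.9, 251.5 and 232.7 in CM. Its KO libraries read 363.3, 385.1 and 364.2 CPM in control medium and 327.7, 329.3 and 332.1 in CM. Libraries in CM lay below those in control medium within each genotype, and KO libraries lay above WT libraries within each medium. In WT it fell by 0.21 ± 0.05 (edgeR, adjusted p = 0.0022), with 15 of 15 exons lower, and in KO by 0.17 ± 0.05 (adjusted p = 0.0207), with 12 of 15 lower. The call in KO was lost without KO control library 2 (adjusted p = 0.0895), without KO CM library 1 (0.0592) and without KO CM library 2 (0.0555).

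Scarb1 (ENSMUSG00000037936, chr5:125277087-125341094, minus strand) encodes SR-BI, an HDL receptor that exchanges cholesterol in both directions. In WT it was 125.2, 133.9, 128.4 and 131.4 CPM in control medium and 133.5, 119.2, 147.0 and 129.5 in CM, so the media overlapped (log2 change 0.03 ± 0.06, edgeR adjusted p = 0.767). In KO it was 122.6, 135.7 and 117.4 CPM in control medium and 146.5, 140.5 and 147.0 in CM, a rise of 0.21 ± 0.07 (adjusted p = 0.0328) with 14 of 14 exons higher. That call was lost on scaling by library totals alone (0.10, adjusted p = 0.253), when repeated exon entries were kept (0.19, 0.0518) and with the most-counted exon only (0.20, 0.106). It was also lost without KO control library 1 (0.0988) or 3 (0.136) and without KO CM library 1 (0.0858) or 3 (0.0849).

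**Figure D2:**
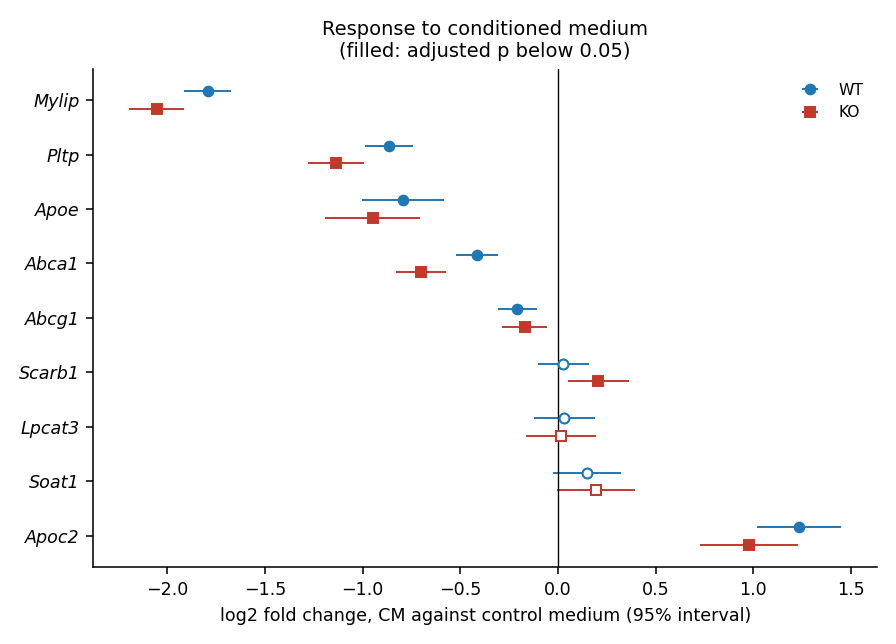
Log2 fold change of each gene in CM against control medium, with 95% intervals, in WT (circles) and KO (squares); filled symbols have an adjusted p below 0.05. Mylip lies at -1.79 and -2.06 and Apoc2 at 1.23 and 0.98, with the other genes between them.

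Apoe (ENSMUSG00000002985, chr7:19696109-19699188, minus strand) encodes the apolipoprotein that macrophages secrete as an acceptor of cholesterol and a ligand for lipoprotein receptors. In control medium it was 2477, 3014, 3303 and 3160 CPM in WT and 2918, 3227 and 3238 in KO. In CM it was 1503, 1754, 1816 and 1827 CPM in WT and 1743, 1753 and 1364 in KO. Within each genotype the CM libraries lay below the control libraries. Apoe fell by 0.79 ± 0.10 (edgeR, adjusted p = 8.89e-06) in WT cells and by 0.95 ± 0.11 (adjusted p = 6.89e-06) in KO cells, with 7 of 7 exons lower in both. Its exon of 860 bases held 52.2 to 55.3% of its counts in WT libraries 3 and 4 and 30.9 to 38.5% in the other 10, and the log2 change in WT was -0.76 ± 0.11 in libraries 1 and 2 alone (adjusted p = 4.34e-05) and -0.82 ± 0.09 in libraries 3 and 4 alone (adjusted p = 4.72e-06).

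Apoc2 (ENSMUSG00000002992, chr7:19671579-19677941, minus strand) lies in the same gene cluster as Apoe and encodes the activator of lipoprotein lipase. It moved the other way. In control medium it was 100.3, 108.1, 91.6 and 80.2 CPM in WT and 101.4, 109.4 and 96.8 in KO, and in CM 232.0, 218.9, 225.7 and 217.7 in WT and 213.9, 230.6 and 162.2 in KO. Within each genotype every CM library was above every control library. Apoc2 rose by 1.23 ± 0.10 (edgeR, adjusted p = 1.07e-07) in WT cells and by 0.98 ± 0.12 (adjusted p = 7.17e-06) in KO cells, and its 4 exons with a mean count of 50 or more, of 6, were higher in both.

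The table lists a second same-strand gene, Gm44805, over Apoc2. It shares 3 of its 4 exons with Apoc2, which hold 88.2% of the Apoc2 counts and 99.97% of the Gm44805 counts, so reads of the 2 genes cannot be told apart in those exons. Hepatocytes also express Apoe and Apoc2. Of 11 hepatocyte and hepatoma markers, Alb, Ahsg, Fgb and Serpina1a had 0 counts in all 14 libraries, and the sum of the list without Trf was 4.33 to 5.40 CPM in WT control, 4.49 to 6.67 in WT CM, 5.95 to 7.44 in KO control and 5.43 to 6.30 in KO CM libraries. Trf, which macrophages also express, averaged 749.6 CPM in WT control, 456.2 in WT CM, 830.0 in KO control and 427.4 in KO CM libraries.

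Pltp (ENSMUSG00000017754, chr2:164839518-164857711, minus strand) encodes phospholipid transfer protein, which moves phospholipid between lipoproteins. In control medium it was 3111, 3230, 3254 and 3247 CPM in WT and 3037, 3238 and 3228 in KO. In CM it was 1645, 1736, 1905 and 1770 CPM in WT and 1343, 1403 and 1577 in KO. The media were far apart, and in CM the KO libraries were below the WT libraries. Pltp fell by 0.86 ± 0.06 (edgeR, adjusted p = 8.30e-09) in WT cells and by 1.14 ± 0.07 (adjusted p = 2.37e-09) in KO cells, with 16 of 16 exons lower in both. Ctsa lies on the opposite strand and overlaps Pltp over 1515 bases, and the strand setting of the counting is not given in the sources used here. In WT 14 of the 16 exons of Ctsa were higher in CM and 2 lower, among them the 1882-base exon (log2 ratio -0.45). In KO, too, 14 were higher and 2 lower, the lowest at -0.50.

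Mylip (ENSMUSG00000038175, chr13:45389742-45412022, plus strand) encodes IDOL, a ubiquitin ligase that marks lipoprotein receptors for degradation. In control medium it was 64.3, 66.0, 73.8 and 74.3 CPM in WT and 73.4, 71.3 and 71.7 in KO. In CM it was 20.2, 20.2, 20.3 and 19.7 CPM in WT and 16.9, 17.2 and 17.9 in KO. The fall was the largest of the 9 members in both genotypes, by 1.79 ± 0.06 (edgeR, adjusted p = 2.52e-12) in WT cells and by 2.06 ± 0.07 (adjusted p = 4.32e-12) in KO cells, with 7 of 7 exons lower.

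**Figure D3:**
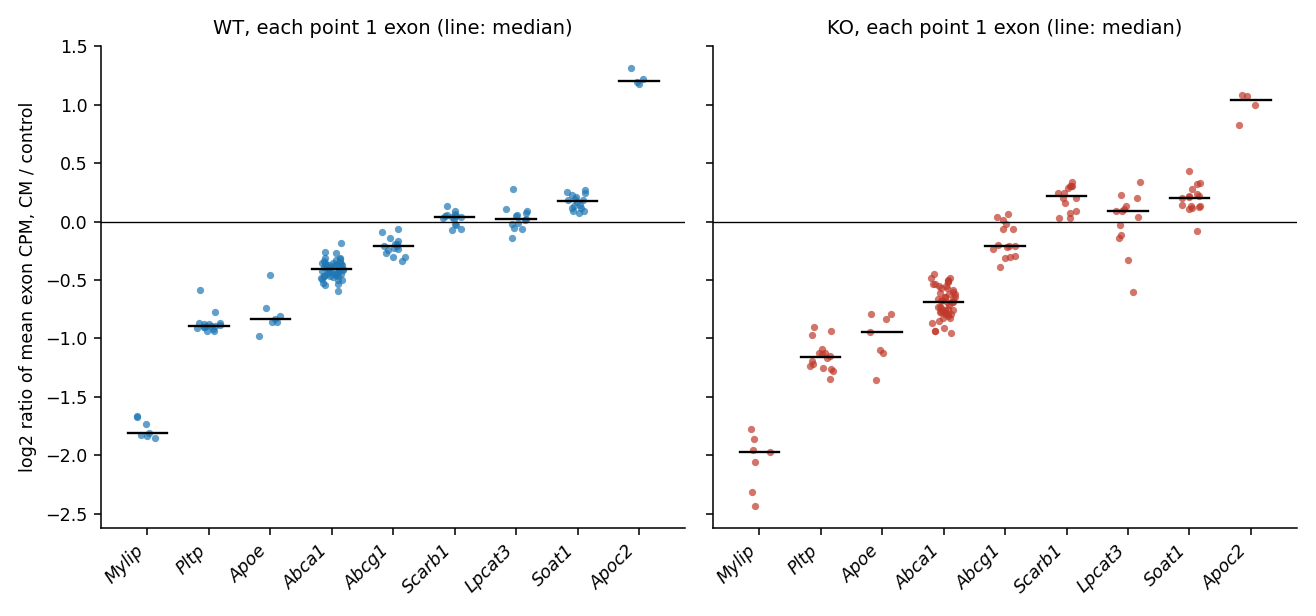
Log2 ratio of mean CPM in CM over control medium for each exon with a mean count of 50 or more (points; lines are medians), in WT and KO. All 50 Abca1 exons, 16 Pltp exons, 7 Apoe exons and 7 Mylip exons lie below 0 in both genotypes, and the 4 Apoc2 exons above 0; exons share fragments and are not replicates.

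Lpcat3 (ENSMUSG00000004270, chr6:124663027-124704418, plus strand) encodes an acyltransferase that puts polyunsaturated chains into membrane phospholipids. In WT it was 56.3, 58.0, 49.7 and 50.8 CPM in control medium and 60.9, 57.8, 50.7 and 50.6 in CM. In KO it was 62.9, 65.1 and 61.1 CPM in control medium and 61.4, 60.7 and 68.8 in CM. The media overlapped in both genotypes, with log2 changes of 0.03 (95% interval -0.12 to 0.19) in WT and 0.01 (-0.17 to 0.19) in KO (edgeR, adjusted p = 0.768 and 0.915). Within WT the 2 deeper libraries of each medium were the lower ones. Lpcat3 overlaps Emg1, on the opposite strand, by 334 bases.

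Soat1 (ENSMUSG00000026600, chr1:156424525-156474331, minus strand) encodes ACAT1, which esterifies cholesterol for storage. In WT it was 399.8, 369.1, 484.2 and 480.1 CPM in control medium and 455.0, 443.3, 501.6 and 521.9 in CM, so that WT libraries 3 and 4 were the higher ones in each medium. In KO it was 352.6, 344.7 and 354.4 CPM in control medium and 389.6, 396.1 and 418.8 in CM, with no overlap, as for 54.6% of all genes. The log2 changes were 0.15 ± 0.08 (edgeR, adjusted p = 0.170) in WT cells and 0.20 ± 0.09 (adjusted p = 0.117) in KO cells. With the replicate number as a block within each genotype, they were 0.16 (edgeR, adjusted p = 0.00342) and 0.20 (adjusted p = 0.00187), and both passed. Whether equal numbers pair the WT libraries is not known, and same-numbered KO libraries gave no sign of pairing. WT libraries 1 and 2 alone gave 0.22 ± 0.06 (adjusted p = 0.00725) and libraries 3 and 4 alone 0.09 ± 0.05 (adjusted p = 0.181).

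Few of the 9 genes differed between KO and WT cells, and Abcg1 was the 1 member called in both media. In control medium 1 of 9 members was called higher and 0 lower, where 2.82% of all genes were higher and 2.50% lower. In CM 1 was higher, Abcg1, and 2 lower, Abca1 and Pltp, where 3.10% of all genes were higher and 1.49% lower. Against WT libraries 1 and 2 alone, Abcg1 was the 1 member called in control medium (background 2.20% higher and 1.65% lower), and Abcg1 and Abca1 were called in CM (background 2.62% and 0.967%).

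Abcg1 was higher in KO by 0.36 ± 0.05 in control medium (edgeR, adjusted p = 0.00113) and by 0.40 ± 0.05 in CM (adjusted p = 0.000555). Set against WT libraries 1 and 2 only, the differences were 0.36 ± 0.05 (adjusted p = 0.000695) and 0.35 ± 0.05 (adjusted p = 0.00117). All 15 of its exons were higher in KO in each of these 4 settings. The CPM values given above show the size: the lowest KO control library, 363.3, is above the highest WT control library, 295.3.

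In CM the log2 difference of Abca1 in KO from WT was -0.23 ± 0.06 (edgeR, adjusted p = 0.0295). It was also -0.23 ± 0.06 beside WT libraries 1 and 2 alone (adjusted p = 0.0318), and 46 and 50 of 50 exons were lower. In control medium its difference was 0.06 ± 0.06 (adjusted p = 0.545). The call in CM did not withstand the loss of single libraries: without WT CM library 1 or 4 the adjusted p was 0.0562 or 0.102, and without KO CM library 1, 2 or 3 it was 0.0586, 0.0883 or 0.138. It was also lost with library totals alone (-0.20 log2, adjusted p = 0.0528) and with the 2 groups fitted by themselves (-0.23, 0.0629).

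For Pltp the difference in CM was -0.29 ± 0.06 (edgeR, adjusted p = 0.0154), with 14 of 16 exons lower, and in control medium -0.02 ± 0.06 (adjusted p = 0.868). With WT libraries 1 and 2 as the only WT libraries it was -0.22 ± 0.06 (adjusted p = 0.0540), with 16 of 16 exons lower. The call was also lost without KO CM library 1 (0.0915) or 2 (0.0651), with the 2 groups fitted by themselves (0.0564) and with the most-counted exon only (0.0530).

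**Figure D4:**
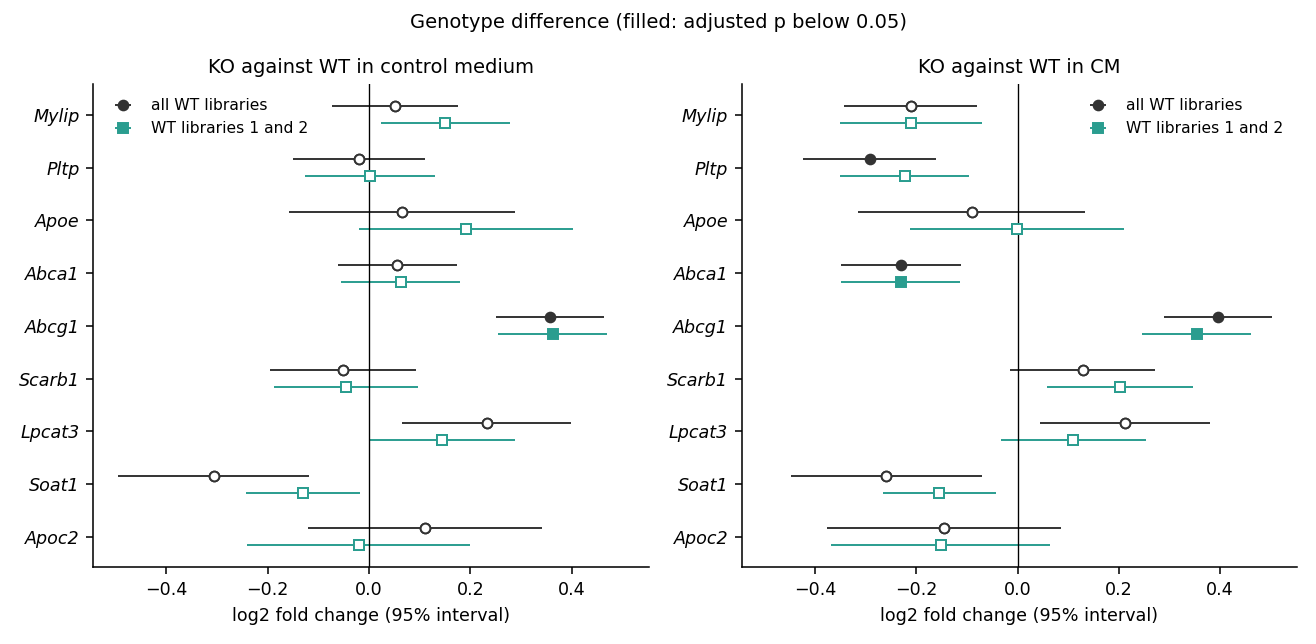
Log2 difference of KO from WT, with 95% intervals, in control medium and in CM, against all 4 WT libraries (circles) and against WT libraries 1 and 2 alone (squares); filled symbols have an adjusted p below 0.05. Abcg1 lies at 0.36 and 0.40, and the estimates of Soat1 and Lpcat3 lie nearer 0 without WT libraries 3 and 4.

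The other 6 genes were not called in either medium. Soat1 was -0.31 ± 0.09 in control medium (edgeR, adjusted p = 0.0563) and -0.26 ± 0.09 in CM (adjusted p = 0.106), but -0.13 ± 0.05 and -0.15 ± 0.05 against WT libraries 1 and 2 alone (adjusted p = 0.197 and 0.134). With the replicate number as a block its difference in control medium was -0.25 and passed (edgeR, adjusted p = 0.0296), as it did with the batch of libraries as a term (-0.17, adjusted p = 0.0349), under DESeq2 (-0.31, 0.0161) and limma-voom (-0.39, 0.00121), and without WT control library 1 (-0.34, 0.0488) or 2 (-0.38, 0.0120). Lpcat3 was 0.23 ± 0.08 (edgeR, adjusted p = 0.0922) and 0.21 ± 0.08 (adjusted p = 0.130), and 0.15 ± 0.07 and 0.11 ± 0.07 against WT libraries 1 and 2. It passed in both media under limma-voom (adjusted p = 0.00393 and 0.0393), and in control medium without WT control library 2 (edgeR, adjusted p = 0.0428). Mylip was 0.05 ± 0.06 in control medium and -0.21 ± 0.06 in CM (adjusted p = 0.604 and 0.0670). Beside WT libraries 1 and 2 only it was 0.15 ± 0.06 and -0.21 ± 0.07 (edgeR, adjusted p = 0.187 and 0.0981). In CM Mylip passed under DESeq2 (adjusted p = 0.0368) and limma-voom (adjusted p = 0.0423). For Apoe, Apoc2 and Scarb1 the differences lay between -0.15 and 0.13 in the 2 media, with adjusted p of 0.261 or more. Beside WT libraries 1 and 2 only, Apoe was 0.19 ± 0.10 in control medium and -0.0009 ± 0.10 in CM, Scarb1 -0.05 ± 0.07 and 0.20 ± 0.07, and Apoc2 -0.02 ± 0.10 and -0.15 ± 0.10 (edgeR, adjusted p of 0.124 or more).

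Whether the response to CM differed between genotypes was tested with an interaction term. It called 0 of 13311 genes in edgeR (0% higher and 0% lower), with 1050 at an unadjusted p below 0.05, of which 3 were members. These were Abca1 (-0.29, 95% interval -0.45 to -0.12, edgeR adjusted p = 0.330), Pltp (-0.27, -0.46 to -0.09, adjusted p = 0.406) and Mylip (-0.26, -0.44 to -0.08, adjusted p = 0.420), all with the larger fall in KO. DESeq2 called 84 genes and Abca1 among them (adjusted p = 0.0495), and limma-voom called 27 and 0 members. With the replicate block edgeR called 205 genes and 2 members, Abca1 (-0.28, adjusted p = 0.0200) and Pltp (-0.27, adjusted p = 0.0263). With only WT libraries 1 and 2, 0.0674% of genes were called higher and 0.0150% lower, with 0 members. The KO comparisons share libraries with the CM comparisons and are not independent of them.

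**Figure D5:**
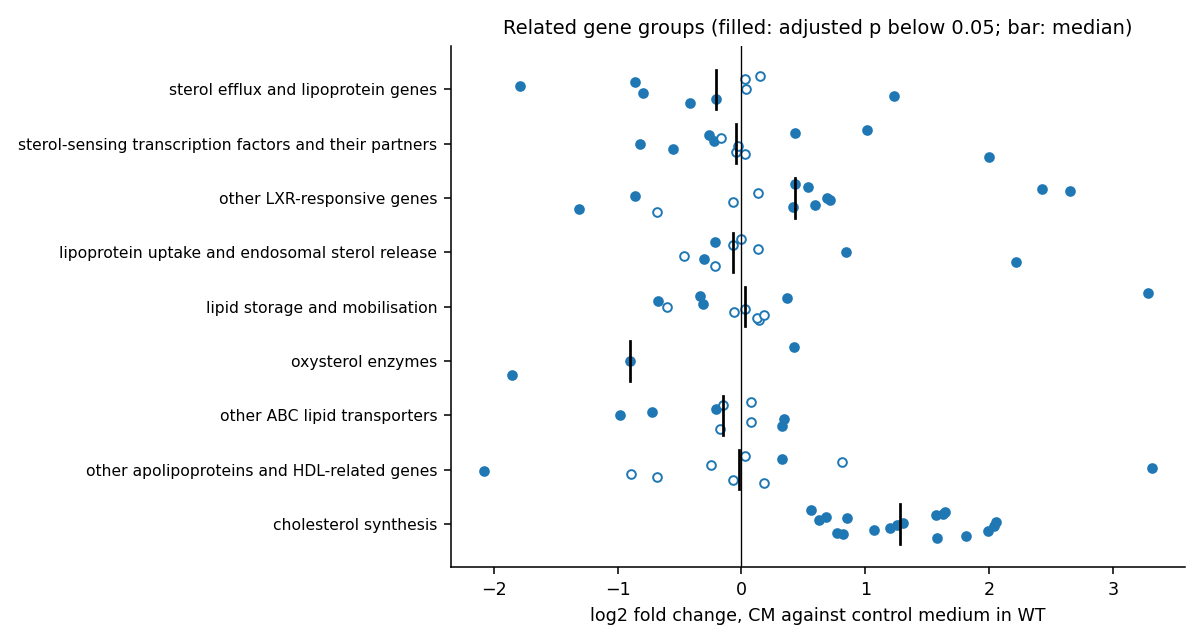
Log2 fold change in CM against control medium in WT for the genes of 9 groups (rows); points are genes, filled where the adjusted p is below 0.05, and bars are group medians. The 18 genes of the cholesterol synthesis list all lie above 0, with a median of 1.28, while the median of the sterol efflux and lipoprotein genes is -0.21.

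The regulators and neighbours of these genes were read from lists chosen with earlier results of these data known. The list counts stand beside 19.3% of all genes called higher and 18.0% lower with CM in WT. In KO these shares were 20.0% and 18.2%. Of 11 sterol-sensing transcription factors and partners, 3 rose and 4 fell with CM in WT, with a median of -0.04. Nr1h3, which encodes LXR alpha, fell by 0.82 ± 0.11 (log2; edgeR, adjusted p = 2.24e-05), from 17.7 to 10.0 CPM. Insig1, which holds SREBP precursors in the endoplasmic reticulum, rose by 2.00 ± 0.05, and Srebf2 by 1.01 ± 0.05. In KO cells these 3 genes changed in the same directions, by -1.11, 2.23 and 1.24.

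Among 13 other LXR-responsive genes the directions were mixed, with 8 higher and 2 lower in WT and a median of 0.43. Arl4c fell by 1.31 ± 0.06 and Lpl, the lipoprotein lipase that Apoc2 protein activates, by 0.86 ± 0.06. The desaturase genes Scd1 and Scd2 rose by 2.66 ± 0.14 and 2.43 ± 0.09, and both are also SREBP targets.

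Genes of the cholesterol synthesis list rose together, 18 of 18 in WT with a median of 1.28 and 17 of 18 in KO with a median of 1.56. In WT, Idi1 rose by 2.04 ± 0.07, Fdps by 1.99 ± 0.10 and Sc5d by 1.57 ± 0.07. Stard4, which is in this list but encodes a sterol transfer protein and not a synthesis enzyme, rose by 1.64 ± 0.07. Of 9 uptake and endosomal release genes tested, of 11, 2 rose and 2 fell. The scavenger receptor gene Msr1 rose by 0.85 ± 0.07, and the lysosomal lipase gene Lipa fell by 0.30 ± 0.05 and Stard3 by 0.21 ± 0.08. Of 11 storage and mobilisation genes 2 rose and 3 fell, with a median of 0.03. Plin2, a coat protein of lipid droplets, fell by 0.67 ± 0.05, the ester hydrolase gene Nceh1 by 0.31 ± 0.05 and Pnpla2 by 0.33 ± 0.05. Soat2, the second cholesterol esterification gene, was called higher at a low level, 0.14 CPM in control medium and 1.37 in CM, far under Soat1.

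Of 9 other ABC lipid transporter genes tested, of 10, 2 rose and 3 fell with CM in WT (median -0.15), among them Abca8b, lower by 0.98 ± 0.11 (log2 change -0.98), Abca9, lower by 0.73 ± 0.07 (log2 change -0.73) and Abca3 at 0.33. In KO cells Abcg2, Abca5 and Abca9 were higher, as Abcg1 was, in control medium (0.45, 0.43 and 0.32, edgeR adjusted p = 0.0142, 0.0144 and 0.0216). They were also higher in CM (0.58, 0.38 and 0.39, edgeR adjusted p = 0.00310, 0.0268 and 0.00786), and 0 of the 9 were lower in either medium. Of all genes 2.82% were higher and 2.50% lower in control medium, and 3.10% and 1.49% in CM. With WT libraries 1 and 2 only, Abca9 passed in both media (0.30 and 0.32; edgeR, adjusted p = 0.0416 and 0.0404), Abca5 in control medium (0.44, 0.0424) but not in CM (0.35, 0.115), and Abcg2 in CM (0.60, 0.00615) but not in control medium (0.35, 0.0810). Of 10 other apolipoprotein and HDL-related genes tested, of 13, 2 rose and 1 fell, with a median of -0.02: Pon2 rose by 0.33 ± 0.05, while Clu (0.0332 to 0.42 CPM) and Apod (0.466 to 0.0884 CPM) were called at levels near the limit of detection. Of 3 oxysterol enzyme genes tested, of 6, Cyp27a1, which makes 27-hydroxycholesterol, an LXR ligand, fell by 0.90 ± 0.05, Hsd3b7 rose by 0.43 ± 0.06 and Ch25h was called lower at 0.241 and 0.0639 CPM.

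Genes whose profile over the 14 libraries was most like a member's were sought among 9585 genes by the root mean square distance of centred log2 CPM, a description with no test. Nearest to Abca1 were Kctd13 (0.0616), Sipa1l2 (0.0640) and Rassf2 (0.0736). Nearest to Abcg1 were Slc25a13 (0.0708), Dtx4 (0.0722) and Tcf12 (0.0773), and nearest to Apoe were Smim3 (0.0893), S1pr1 (0.107) and Col18a1 (0.113). None of these 9 is in the lists above.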

How the data were processed

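RNA was sequenced from 14 mouse macrophage libraries in 4 groups, assigned from the samples' titles. The authors deposited raw counts per exon entry of transcript models, and the submitters' processing notes name HISAT2 and mm10. The version of HISAT2, counting tool, annotation and strand setting are not given in the sources used here, and the kit is a stranded one per the labels' protocols. Of 427386 entries, 196941 repeated another entry of the same gene and held 48.6% of counts; they were removed and the other 230445 summed per symbol. A fragment spanning exons can be counted in each. The depth, 40.2 to 85.8 in units of 1e6 counts per library, limits the precision for genes under about 1 CPM.

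Genes were fitted with edgeR 4.0.16 in R 4.3.3 (TMM scaling, low counts removed by filterByExpr at 10 per library and 15 in all, quasi-likelihood F tests, 1 mean per group over 14 libraries, Benjamini-Hochberg over 13311 genes, called at an adjusted p below 0.05). The fit was also run on simulated counts, with the same spread for every gene and no difference of WT libraries 3 and 4. The planted changes were larger than the members' genotype differences, so that run does not test those calls. Standard errors are the size of the log2 change over the root of F, with 95% intervals from the t distribution. CPM use TMM-scaled totals. Exon ratios use exons with a mean count of 50 or more. Alternatives were DESeq2 1.42.0, limma-voom (limma 3.58.1) with quality weights per library, called limma-voom here, and DESeq2 size factors or library totals alone. Others were other filters, other exon rules, only the compared groups and a term for WT libraries 3 and 4. The rest were WT libraries 1 and 2 or 3 and 4 alone, a replicate block and each library left out. The term marks WT libraries 3 and 4 of both media and was set after their difference was seen. No label names it and no KO library carries it. Labels number the replicates. Deviations of same-numbered libraries from their group means correlated at 0.331, 0.354, 0.47 and 0.462 in WT and at -0.002, -0.036 and 0.051 in KO. WT libraries 3 and 4 of both media share a difference from the other libraries, and libraries of unlike number were not compared. The check therefore cannot show whether numbers pair the WT libraries, and it gave no sign of pairing in KO. For the CM comparisons and the interaction the block was set within each genotype. For the KO comparisons it was shared by same-numbered WT and KO libraries, which no label ties together. The block is printed where it changed a call.

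All 9 members are named, with up to 4 genes of each related list by smallest p for CM in WT, the list genes called between genotypes that are discussed, and the 3 genes nearest to Abca1, Abcg1 and Apoe (mean of 4 CPM or more, offset 0.5). Some genes that this rule names are not reported here. The members and lists were chosen with earlier results of these data known. Promoter sequences are from RefSeq, and gene positions from GENCODE on GRCm38, the same build as mm10.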

Additional observations from a re-analysis of the deposited data

Results flagged for a closer look

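In WT control libraries, Pltp in library 1 (3111 CPM) lay apart from the other 3 (3230 to 3254 CPM): its gap to the nearest was 0.835 of the group's whole range, over Dixon's critical value for 4 samples. The gap is small beside the change with CM, and chance flags about 1 in 20 groups.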

How the results depend on the processing

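Of 1170 values of single members under alternatives, 1090 kept their direction and side of the threshold, 22 lost and 23 gained a call, and 35 reversed, all of these among uncalled changes. The calls with CM in WT (27 of 27 alternatives each) and those of Abca1, Apoc2, Apoe, Mylip and Pltp in KO (25 of 25) held. Members called with KO in control medium numbered 2 under DESeq2, the replicate block and the batch term (11.3%, 6.21% and 7.81% of all genes), 3 under limma-voom (35.7% of all genes, so near the background), and 1 to 3 with a library left out (1.67 to 13.3% of all genes). In CM they were 6 under limma-voom (13.5%), 1 with only the compared groups (3.31%), and 1 to 3 with a library left out (1.61 to 5.42%). The main shares were 5.32% and 4.59%. For the interaction they were 1 under DESeq2 and the batch term (0.631% and 1.23%) and 2 under the replicate block (1.54%). Besides Soat1, and Abca1 and Pltp in the interaction, the block changed no call.

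With library totals alone the median of all genes moved from -0.01 to -0.12 for CM in KO and from -0.01 to -0.09 in WT, and the share of calls that were higher from 51.8% to 35.9% in WT, from 52.4% to 34.9% in KO, and from 53.0% to 76.9% for KO in control medium. Reversed with it were Scarb1 and Lpcat3 with CM in WT (-0.055, -0.048), Lpcat3 with CM in KO (-0.092) and Pltp for KO in control medium (0.03). limma-voom reversed Apoe for KO in control medium (-0.008) and Lpcat3 with CM in KO (-0.013). The most-counted exon reversed Apoe (-0.04) and Mylip (-0.022) for KO in control medium and the interactions of Abcg1 (-0.01) and Lpcat3 (0.0). The term for WT libraries 3 and 4 reversed Apoe for KO in CM (0.011) and Pltp for KO in control medium (0.02). WT libraries 1 and 2 alone reversed Apoc2 (-0.02) and Pltp (0.002) for KO in control medium, Scarb1 with CM in WT (-0.04), and the interactions of Abcg1 (-0.009) and Soat1 (-0.025); libraries 3 and 4 alone reversed that of Lpcat3 (0.001). With a library left out, ranges that crossed 0 were Apoe for KO in control medium (-0.014 to 0.117) and in CM (-0.151 to 0.019), Scarb1 (-0.029 to 0.074) and Lpcat3 (-0.021 to 0.072) with CM in WT, Pltp for KO in control medium (-0.035 to 0.01), Lpcat3 with CM in KO (-0.046 to 0.05), and the interactions of Lpcat3 (-0.08 to 0.035) and Soat1 (-0.011 to 0.117). The cause was not tested for any of these.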

Other observations

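Other genes of lipoprotein handling differed between genotypes. Cd36, a scavenger receptor gene, was higher in KO by 0.53 ± 0.10 (log2) in control medium and 0.63 ± 0.10 in CM (edgeR, adjusted p = 0.00852 and 0.00310), and by 0.69 and 0.64 against WT libraries 1 and 2 only. Lpl was higher in KO in CM by 0.59 ± 0.07 (adjusted p = 0.000266), and by 0.51 against those libraries. In control medium 4 of 18 genes of the cholesterol synthesis list were lower in KO, 0 higher and 14 not called. Of all genes 2.50% were lower there. In CM 0 of the 18 were lower and 2 higher, with a median of 0.12, where 3.10% of all genes were higher. Sqle, Cyp51 and Msmo1 were lower in control medium (log2 differences -0.59, -0.41 and -0.31, edgeR adjusted p = 0.00261, 0.0229 and 0.0304). Msmo1 did not pass against WT libraries 1 and 2 only (-0.22, edgeR adjusted p = 0.106). In CM Sqle, Cyp51 and Msmo1 were not called (-0.04, 0.05 and -0.002). These genes were picked from the lists after their values were seen.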
